A study of Bos taurus with 24 samples.

Results

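A set of 9 genes of Wnt signalling and its feedback control were followed through bovine follicle growth: NKD1, AXIN2, DKK3, WNT4, LEF1, TCF7, RNF43, ZNRF3 and LGR5. They were taken by name from the 27607 genes of the deposited count table, and all 9 members were found there. RNA had been sequenced in 24 Bos taurus libraries that fall into 5 groups by follicle stage and cell position. Granulosa cells of secondary follicles (secondary_GC) had 4 libraries. Mural granulosa cells, which line the follicle wall, came from early antral (early_MGC) and late antral (late_MGC) follicles, with 5 libraries each. Cumulus cells, which surround the oocyte, came from the same stages (early_CC and late_CC), again with 5 libraries each. The study asked whether granulosa cells of these stages differ in their capacity to regrow transzonal projections, the fine extensions that reach the oocyte. All libraries were made from total RNA with a kit for very small RNA inputs. The labels name no treatment, breed or age, and they do not say whether the libraries of a group come from separate animals, so the p-values measure the spread between these libraries only.

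In canonical Wnt signalling a secreted ligand binds a Frizzled receptor with an LRP co-receptor, a cytoplasmic destruction complex is switched off, and beta-catenin enters the nucleus, where it joins DNA-binding factors of the TCF/LEF family. Several genes that this turns on restrain the pathway in turn. In the ovary WNT4, R-spondin 1 and beta-catenin are known for their part in female gonad development, and beta-catenin also acts in granulosa cells. NKD1 binds Dishevelled and AXIN2 is a scaffold of the destruction complex, and both are widely used as readouts of the pathway. RNF43 and ZNRF3 are membrane ubiquitin ligases that remove Frizzled receptors, and LGR5 is a receptor for the R-spondins that block these ligases. TCF7 and LEF1 are DNA-binding partners of beta-catenin. DKK3 is a secreted member of the Dickkopf family whose action on Wnt receptors is less settled than that of its relatives.

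Levels are counts per 1000000 counts assigned to genes (CPM), and CPM per kilobase of exon where 2 genes are compared. A gene was called changed at an adjusted p under 0.05 in edgeR's quasi-likelihood test over all 14298 genes that passed a filter on low counts. Of the 9 members, 7 passed that filter, and WNT4 and LGR5 did not. The set was chosen by name with earlier results of these data in view, among them the late against early differences of NKD1 and DKK3. Those differences are therefore given as descriptions without a test.

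Total counts lay between 8379801 and 31762400 per library. Libraries late_MGC 3, late_CC 3 and early_MGC 4 stood apart, with mean correlations to their own group of 0.870, 0.915 and 0.921. Secondary_GC 2 was close to early_MGC 4 on this measure, at 0.9225, and was not set apart. The 11 granulosa markers summed to 575 CPM in late_MGC 3 against 9771 to 13690 CPM in the other late_MGC libraries, and to 6073 CPM in late_CC 3 against 20890 to 33960 CPM in the other late_CC libraries. The 11 theca and stroma markers summed to 2727 CPM in late_MGC 3 and to 270 to 434 CPM in the rest of its group. In late_CC 3 they summed to 217 CPM, below the 541 to 699 CPM of the rest. INSL3 made up most of the late_CC sum, with a mean of 402 of 551 CPM, and was at 26.9 CPM in late_CC 3. Of the other markers averaging at least 1 CPM in late_CC, PDGFRA (79.5 CPM), POSTN (64.0) and TAGLN (6.92) were highest in late_CC 3. LUM (26.2) and COL1A1 (12.25) were lowest there. Theca and stroma markers summed to 179 to 394 CPM in secondary_GC, 120 to 327 in early_MGC and 201 to 790 in early_CC. Single markers within the lists of other cells differed widely: BMP15 of oocytes, HBB of red blood cells and KRT7 of epithelium had no count in any library, and CYP17A1 of theca had none outside late_MGC 3, where it stood at 0.161 CPM. Other listed markers were present, with INSL3 of theca averaging 94.2 to 402 CPM by group, LUM of stroma 17.3 to 334, OOEP of oocytes 2.45 to 21.7, KIT of oocytes 3.99 to 58.9, and MSLN of the ovarian surface 6.01 in secondary_GC. Among granulosa markers, FSHR and CYP19A1 had counts in all 24 libraries but were at 10.6 and 0.107 CPM in late_MGC 3, and FOXL2 had no count in late_MGC 3 or early_MGC 4.

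NKD1 (ENSBTAG00000012295) lies on chromosome 18 at 18940443 to 19034788, plus strand, in build ARS-UCD1.2. It was present in all 14 libraries of secondary and early antral follicles and close to absent in both late antral groups. In secondary_GC its level was 19.7, 15.6, 26.4 and 11.4 CPM. In early_MGC it was 23.5, 31.96, 15.2, 18.9 and 16.4 CPM, and in early_CC 23.5, 22.9, 27.8, 14.5 and 29.2 CPM. The 3 groups overlapped throughout. In late_MGC the values were 0, 0.484, 0.107, 0 and 0.285 CPM, and in late_CC 0.229, 0, 0.138, 0.242 and 0 CPM. No late library came near the lowest early one, and 2 libraries of each late group had no NKD1 count at all.

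Group means of NKD1 were 18.3 ± 6.38 CPM in secondary_GC (SD, n = 4), 21.2 ± 6.83 in early_MGC, 23.6 ± 5.76 in early_CC, 0.175 ± 0.208 in late_MGC and 0.122 ± 0.118 in late_CC (SD, n = 5 each). In the fit, NKD1 differed by -6.87 ± 0.59 (log2 fold change ± SE) between late_MGC and early_MGC, 117-fold lower, and by -7.52 ± 0.62 between late_CC and early_CC, 184-fold lower. These sizes rest on 16 NKD1 counts in late_MGC and 10 in late_CC, so they depend on how near-zero counts are treated: the mural difference was -7.58 with limma-voom and -7.60 without late_MGC 2, the library with the most NKD1 in its group. In bulk libraries, fewer cells with NKD1 and less NKD1 RNA per cell cannot be told apart. Without the 3 libraries that stood apart the groups were as far apart, and the means were 21.8 ± 7.74 CPM in early_MGC, 0.192 ± 0.236 in late_MGC and 0.118 ± 0.136 in late_CC.

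The late against early differences of the 2 cell types differed by -0.65 ± 0.89, cumulus minus mural. In the other 4 comparisons NKD1 differences were smaller than their errors. The log2 fold change was 0.35 ± 0.44 for early_MGC against secondary_GC (edgeR adjusted p = 0.67) and 0.39 ± 0.44 for early_CC against secondary_GC (edgeR adjusted p = 0.729). Cumulus and mural cells differed by 0.04 ± 0.41 at the early stage (edgeR adjusted p = 0.964) and by -0.61 ± 0.79 at the late stage (edgeR adjusted p = 0.565). None of these passed the test. The order of the means among the 3 earlier groups therefore carries no tested difference.

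AXIN2 (ENSBTAG00000030162, chromosome 19, 62212833 to 62240091, minus strand) followed the same course with a shallower drop. Its level was 10.7, 23.4, 16.9 and 13.5 CPM in secondary_GC and 15.7, 20.7, 15.2, 9.43 and 19.7 CPM in early_MGC. In early_CC it was 14.1, 24.9, 17.4, 14.7 and 19.7 CPM. Late_MGC libraries had 1.63, 3.20, 0.750, 1.68 and 1.33 CPM, and late_CC libraries 1.95, 4.37, 1.45, 2.30 and 1.55 CPM. Every late library lay below every earlier one, yet all 10 late libraries still held AXIN2 counts, where NKD1 had none in 4 of them.

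AXIN2 fell by 3.11 ± 0.34 on the log2 scale in mural cells (8.60-fold lower, edgeR adjusted p = 9.67e-07) and fell by 2.95 ± 0.34 in cumulus cells (7.71-fold lower, edgeR adjusted p = 5.05e-07). Both calls held in each of the 30 and 32 alternative analyses. The difference between the 2 falls, the interaction of stage and cell type, was 0.16 ± 0.45 (edgeR adjusted p = 0.825). Between secondary_GC and the early antral groups AXIN2 differed by 0.12 ± 0.33 (early_MGC, edgeR adjusted p = 0.864) and 0.19 ± 0.33 (early_CC, edgeR adjusted p = 0.835). Per kilobase of exon, NKD1 and AXIN2 stood at like levels before the late antral stage: 4.98 ± 1.22 and 4.66 ± 1.12 CPM per kilobase in early_CC (SD, n = 5). In late_CC AXIN2 was at 0.596 ± 0.306 CPM per kilobase and NKD1 at 0.0258 ± 0.0250.

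DKK3 (ENSBTAG00000004275, chromosome 15, 40685311 to 40735279, plus strand) took the opposite course. It was low in secondary_GC at 1.78, 1.90, 2.55 and 2.42 CPM, in early_MGC at 3.21, 3.71, 1.68, 0.239 and 2.097 CPM, and in early_CC at 3.87, 3.01, 5.13, 3.84 and 1.97 CPM. In late_MGC it stood at 14.2, 19.3, 57.9, 23.1 and 20.5 CPM, and in late_CC at 19, 21.9, 42.5, 30.7 and 20.6 CPM. The late and early antral groups did not overlap in either cell type. The highest library of each late group was the one that stood apart, late_MGC 3 or late_CC 3.

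**Figure D1:**
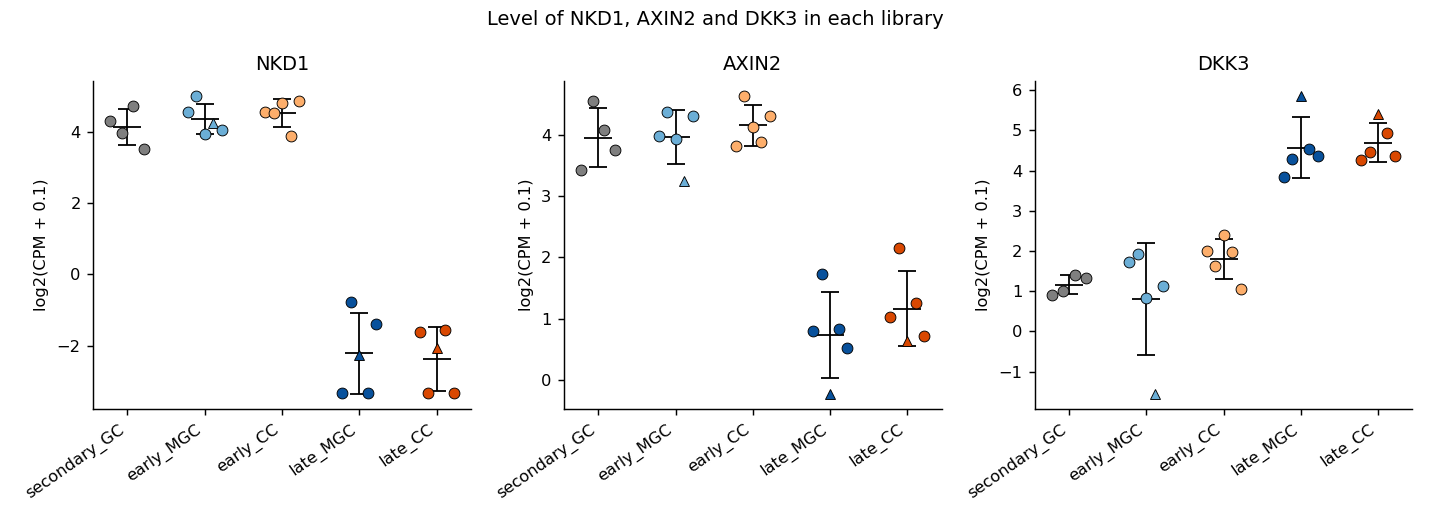
NKD1, AXIN2 and DKK3 in each library, as log2(CPM + 0.1), by group. Points are libraries (triangles: late_MGC 3, late_CC 3 and early_MGC 4, which stood apart), bars are the mean ± SD of the log2 values; both late groups lie below the other 3 for NKD1 and AXIN2 and above them for DKK3.

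Mean DKK3 was 2.16 ± 0.381 CPM in secondary_GC (SD, n = 4), 2.19 ± 1.36 in early_MGC, 3.56 ± 1.17 in early_CC, 26.96 ± 17.6 in late_MGC and 26.95 ± 9.80 in late_CC (SD, n = 5 each). The late against early difference was 3.68 ± 0.42 on the log2 scale in mural cells, 12.8-fold higher, and 2.92 ± 0.40 in cumulus cells, 7.57-fold higher. The difference between them, cumulus minus mural, was -0.76 ± 0.55. Without the 3 libraries that stood apart the values became 3.04 and 2.65, with means of 19.2 ± 3.74 CPM in late_MGC and 23.1 ± 5.22 in late_CC. The summed theca and stroma markers were highest of all libraries in late_MGC 3, where DKK3 was also highest. In late_CC 3, the next highest DKK3 library, the sum was the lowest of its group. INSL3 made up most of the late_CC sum and was at 26.9 CPM in late_CC 3. PDGFRA, POSTN and TAGLN were at their highest of the group there, and LUM and COL1A1 at their lowest. The remaining markers were near 0 there, with DCN at 0.554 CPM, COL3A1 at 0.138 CPM and no count of COL1A2, PDGFRB or CYP17A1. DCN was low across late_CC, with a mean of 0.793 CPM. The share of stroma in late_CC 3 was not tested. The other 8 late libraries held 14.2 to 30.7 CPM of DKK3 beside 270 to 699 CPM of these markers. Against secondary_GC, DKK3 did not pass the test in early_MGC (0.15 ± 0.43, edgeR adjusted p = 0.871) or early_CC (0.76 ± 0.43, edgeR adjusted p = 0.393). Late_CC and late_MGC differed by -0.15 ± 0.37 (edgeR adjusted p = 0.779).

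TCF7 (ENSBTAG00000001002, chromosome 7, 45768913 to 45800957, plus strand) was called in the interaction of stage and cell type, alone among the 5 members tested there. It was measured at 17.7, 18.6, 15.7 and 12.7 CPM in secondary_GC. Early_CC was highest, at 45.2, 36.1, 34.2, 38.4 and 33.3 CPM, and early_MGC was mixed, at 31.6, 33.6, 22.2, 12.8 and 25.7 CPM. Late_CC had 15.2, 23.9, 17.7, 15.2 and 19.5 CPM, all below every early_CC library. Late_MGC had 22.5, 26.8, 14.6, 22.1 and 24.1 CPM, inside the range of early_MGC.

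TCF7 rose in early_CC against secondary_GC by 1.25 ± 0.23 on the log2 scale, 2.38-fold (edgeR adjusted p = 0.00465), and this call held in all 30 alternatives. It rose in early_MGC against secondary_GC by 0.76 ± 0.23, 1.70-fold (edgeR adjusted p = 0.0371), a call that was lost in 7 of 30 alternatives with edgeR adjusted p up to 0.141, 5 of them the omission of secondary_GC 1, 3 or 4 or of early_MGC 1 or 2. From early to late antral it fell by 1.03 ± 0.21 in cumulus cells, 2.04-fold lower (edgeR adjusted p = 0.000403), and was at -0.06 ± 0.21 in mural cells (edgeR adjusted p = 0.866). The interaction was -0.96 ± 0.30 (edgeR adjusted p = 0.0168) and passed in all 30 alternatives, with adjusted p from 0.00305 to 0.0433. Cumulus against mural cells gave 0.49 ± 0.21 at the early stage (edgeR adjusted p = 0.134) and -0.48 ± 0.21 at the late stage (edgeR adjusted p = 0.0774). The late difference passed without late_MGC 3 (-0.62, edgeR adjusted p = 0.0163) and without late_CC 2 (-0.58, edgeR adjusted p = 0.0486).

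LEF1 (ENSBTAG00000006844, chromosome 6, 17083864 to 17200183, plus strand), the other nuclear factor, was low in most libraries and was not called in any comparison. It lay at 1.28, 0, 2.48 and 1.52 CPM in secondary_GC. Early_MGC had 1.42, 2.45, 0.719, 1.19 and 0.886 CPM, and early_CC 3.34, 1.73, 0.513, 1.03 and 1.08 CPM. Late_MGC had 0.209, 0.725, 7.98, 0.841 and 1.95 CPM and late_CC 0.916, 0.934, 10.7, 0.362 and 0.493 CPM. A single library in each late group, late_MGC 3 and late_CC 3, held by far the most. The late against early value was 0.83 ± 0.94 in mural cells (edgeR adjusted p = 0.585) and 0.86 ± 0.92 in cumulus cells (edgeR adjusted p = 0.467). Without those libraries both turned negative, to -0.39 without late_MGC 3 (edgeR adjusted p = 0.801) and to -1.19 without late_CC 3 (edgeR adjusted p = 0.261). The level of LEF1 per kilobase in early_CC was 0.595 ± 0.423 CPM, against 11.1 ± 1.41 for TCF7.

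**Figure D2:**
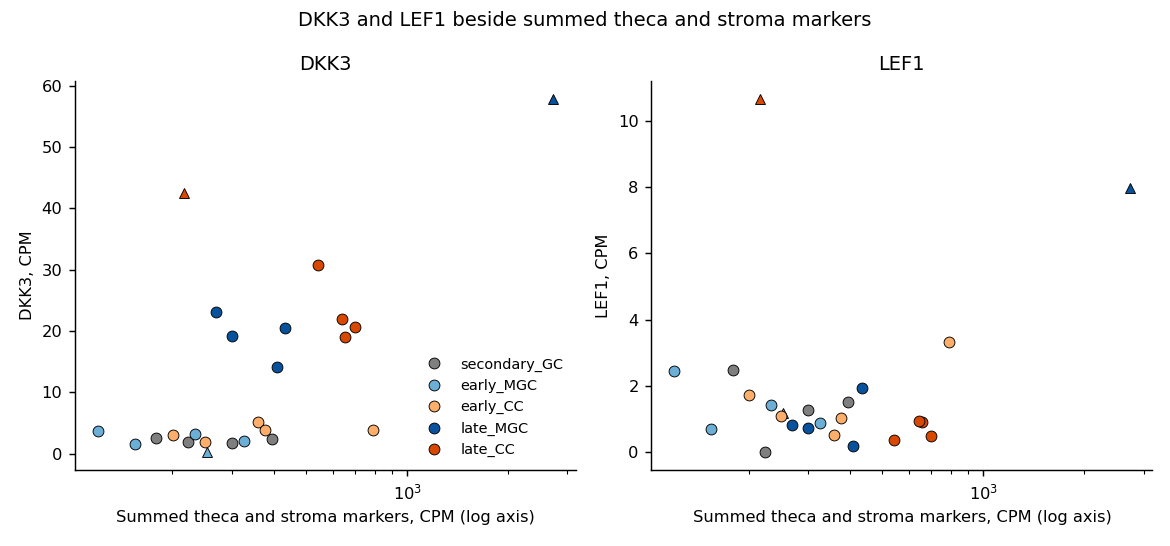
DKK3 (left) and LEF1 (right) in CPM against the summed CPM of 11 theca and stroma markers (log axis), 1 point per library, with triangles for the libraries that stood apart. Late_MGC 3 lies far right at 2727 CPM of the markers and late_CC 3 left of its group at 217 CPM. Both are the highest of their group for each gene. The late_CC sum is mostly INSL3, which was at 26.9 CPM in late_CC 3, and the part of the markers in these levels was not tested.

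RNF43 (ENSBTAG00000020119, chromosome 19, 9320780 to 9386860, minus strand) and ZNRF3 (ENSBTAG00000022036, chromosome 17, 68227493 to 68400924, plus strand) differed from each other in course. Late_CC held RNF43 at 2.35, 2.75, 2.21, 2.36 and 1.41 CPM and late_MGC at 0.278, 0.484, 0.214, 0.120 and 0.0949 CPM. The 2 groups did not overlap. RNF43 was higher in late_CC by 2.99 ± 0.90 on the log2 scale, 7.95-fold (edgeR adjusted p = 0.00984), and the call held in all 30 alternatives. At the early stage the cumulus values were 0.0315, 1.84, 2.05, 0.862 and 1.25 CPM. They overlapped the mural values of 0.556, 0.420, 1.26, 0 and 0.186 CPM (1.13 ± 0.84, edgeR adjusted p = 0.405).

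Neither late against early value of RNF43 passed the test, at -0.96 ± 0.89 in mural cells (edgeR adjusted p = 0.494) and 0.90 ± 0.81 in cumulus cells (edgeR adjusted p = 0.378). Nor did their difference (1.86 ± 1.2, edgeR adjusted p = 0.251), so the late cumulus excess was not shown to be greater than the early one. Secondary_GC had 0.493, 0.5, 0.992 and 0 CPM of RNF43. These are low levels: late_MGC held 24 RNF43 counts in all and late_CC 188.

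ZNRF3 was not called in any comparison. Secondary_GC, with 9.13, 7.60, 17.6 and 4.28 CPM, had the highest mean, 9.64 ± 5.66 (SD, n = 4). Means were 5.77 ± 2.04 CPM in early_MGC, 5.82 ± 2.02 in early_CC, 2.99 ± 1.47 in late_MGC and 4.02 ± 1.81 in late_CC (SD, n = 5 each). The late against early value was -0.86 ± 0.43 in mural cells (edgeR adjusted p = 0.169) and -0.51 ± 0.42 in cumulus cells (edgeR adjusted p = 0.339). Ranges of neighbouring groups overlapped throughout. In every group ZNRF3 had more CPM per kilobase than RNF43, at 1.30 ± 0.585 against 0.440 ± 0.0981 in late_CC (SD, n = 5), the group where RNF43 was highest.

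**Figure D3:**
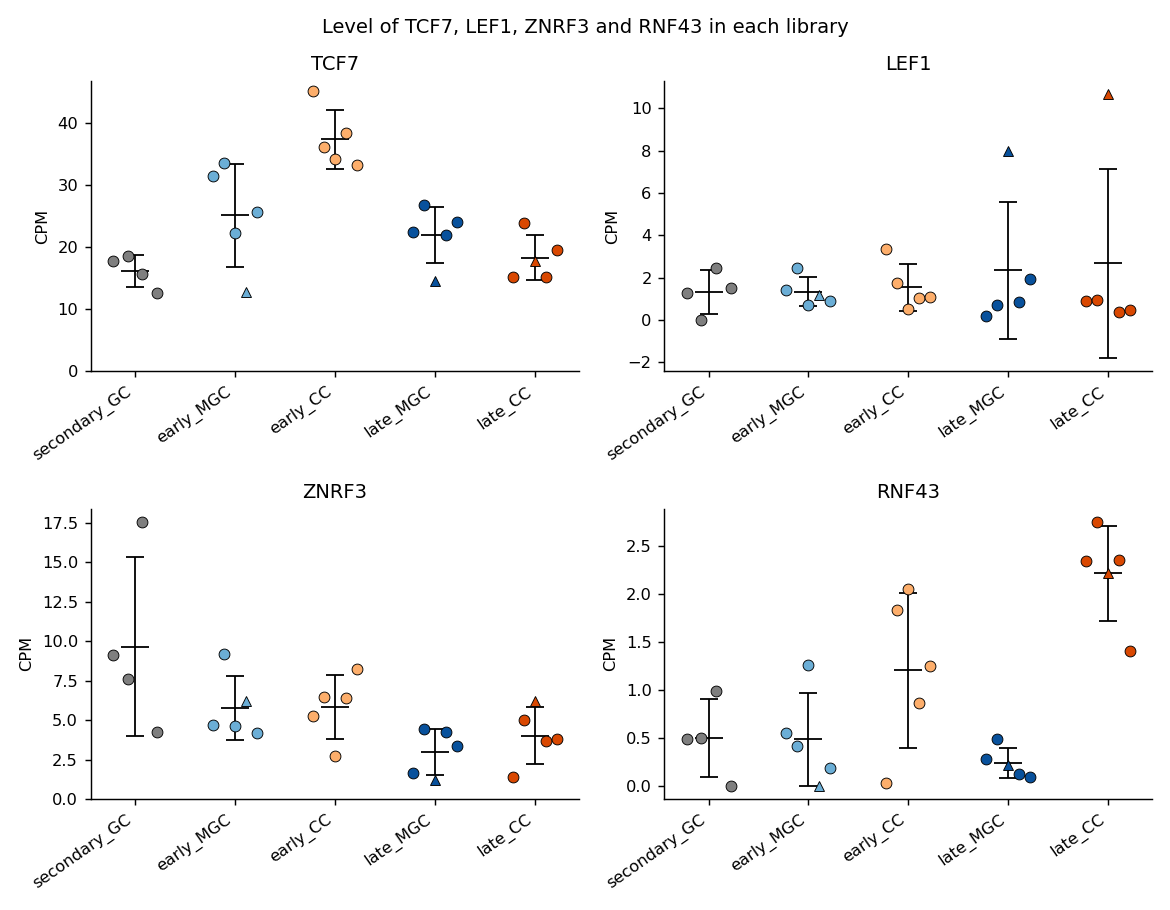
TCF7, LEF1, ZNRF3 and RNF43 in each library, in CPM, by group, with triangles for the 3 libraries that stood apart and bars for mean ± SD. TCF7 is highest in early_CC, RNF43 in late_CC, and the LEF1 means of both late groups are raised by 1 library each, at 7.98 and 10.7 CPM.

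WNT4 (ENSBTAG00000051083, chromosome 2, 130696821 to 130711436, plus strand) had 2 counts in all 24 libraries, both in early_MGC 1 (0.123 CPM). In the other 4 groups its count was 0, which allows a level of up to 0.0244 CPM in early_CC, 0.0361 in late_CC, 0.0402 in secondary_GC and 0.0295 in late_MGC, counting error only. Its gene model shares only 0.52 of the joint span with the RefSeq gene of that symbol, so these counts are of that model. LGR5 (ENSBTAG00000013256, chromosome 5, 1094237 to 1220337, plus strand) had 2 counts in secondary_GC, 14 in early_MGC, 3 in early_CC, 2 in late_MGC and 9 in late_CC. All 9 late_CC counts were in late_CC 3, at 0.623 CPM. Neither gene passed the count filter, so differences of these 2 genes between groups were not tested.

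**Figure D4:**
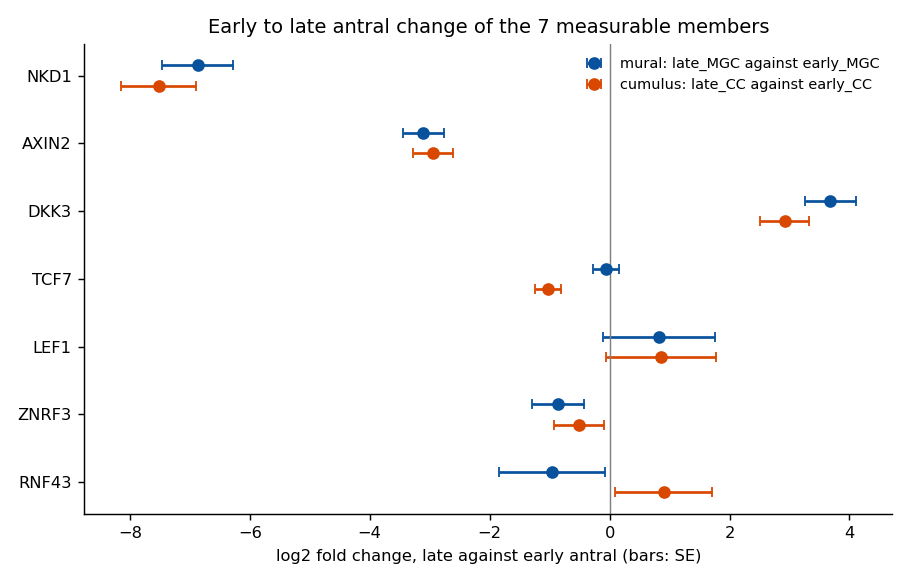
Late against early antral log2 fold change with its SE for the 7 members that passed the count filter, in mural (blue) and cumulus (orange) cells. NKD1 and AXIN2 are negative and DKK3 positive in both cell types, and TCF7 is at -1.03 in cumulus cells against -0.06 in mural cells; NKD1 and DKK3 are descriptions without a test.

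Counted by comparison, 1 of the 7 members tested was called in early_MGC against secondary_GC (TCF7, higher), where 9.1% of all genes tested were called and 5.01% were called higher. In early_CC against secondary_GC 1 of 7 was called (TCF7, higher) beside 1.99% of all genes and 0.944% called higher. With NKD1 and DKK3 set aside, 1 of 5 was called in late_MGC against early_MGC (AXIN2, lower) beside 19.1% of all genes and 9.3% called lower. In late_CC against early_CC 2 of 5 were called (AXIN2 and TCF7, lower), where 45.2% of all genes were called and 22.7% were called lower, so a share of this size is near the background. For early_CC against early_MGC the count by edgeR was 0 of 7 beside 13.1% of all genes. At an unadjusted edgeR p under 0.05 there was 1, TCF7, and neither DESeq2 nor limma-voom called a member. Late_CC against late_MGC gave 1 of 7 (RNF43, higher) beside 39.7% of all genes and 18.9% called higher. The interaction gave 1 of 5 (TCF7, negative) beside 31.4%, of which the negative calls were 16.9% of all genes.

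Around these members, a wider list of Wnt genes was read from the same fit: ligands, ligand secretion, R-spondins and their receptors, receptors, secreted inhibitors, the cytoplasmic core, nuclear factors and further target genes. Of 87 genes listed 76 were matched and 46 passed the count filter. Most ligands were not measurable: 4 of 15 matched passed. From early to late antral, 6 of 46 rose and 6 fell in mural cells, with a median log2 fold change of -0.17 beside 0.05 over all genes tested. In cumulus cells 10 rose and 4 fell, with a median of 0.41 beside 0.04. The shares called, 26.1% and 30.4%, compare with 19.1% and 45.2% of all genes.

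Among the ligands, WNT6 shared the late antral fall of NKD1 and AXIN2. Unlike those 2 genes, its early antral libraries all lay below those of secondary_GC. WNT6 was not called in either early antral group against secondary_GC. It was at 112, 78.1, 96.3 and 88.7 CPM in secondary_GC. Early_MGC had 26.6, 73.5, 42.8, 42.8 and 26.8 CPM and early_CC 14.01, 47.7, 19.7, 19.3 and 47.9 CPM. The late values were 1.88, 4.65, 0.321, 2.76 and 1.90 CPM in late_MGC and 0.687, 0.983, 0.138, 0.725 and 0.282 CPM in late_CC. No late library reached the lowest earlier one. WNT6 fell by 4.12 ± 0.50 in mural cells (edgeR adjusted p = 5.56e-06) and fell by 5.63 ± 0.56 in cumulus cells (edgeR adjusted p = 1.76e-07). WNT11, a ligand best known for beta-catenin-independent signalling, fell by 1.65 ± 0.33 in cumulus cells (edgeR adjusted p = 0.000299), from a mean of 14.5 ± 4.30 to 4.68 ± 1.91 CPM. In mural cells WNT11 fell by 1.13 ± 0.34 (edgeR adjusted p = 0.0216), a call lost in 4 of 30 alternatives, among them without early_MGC 3 or without late_MGC 4.

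SFRP4, a secreted protein that binds Wnt ligands, and PORCN, the enzyme that adds the lipid Wnt ligands need for secretion, parted between the cell types. SFRP4 stood at 19.4, 29.2, 19.3, 6.92 and 21.7 CPM in early_MGC and at 0.765, 1.15, 0.482, 0.120 and 0.901 CPM in late_MGC. In cumulus cells it was at 82.3, 62.3, 64.9, 120 and 75.8 CPM early and at 42.6, 39.6, 101, 20.7 and 23.7 CPM late. Late_MGC alone was near 0, while late_CC overlapped early_CC only through late_CC 3. SFRP4 fell by 4.65 ± 0.50 in mural cells (edgeR adjusted p = 1.28e-06), and the interaction was 3.86 ± 0.63 (edgeR adjusted p = 9.52e-05). In cumulus cells the value of -0.79 did not pass, but without late_CC 3 it was -1.36 (edgeR adjusted p = 0.00348).

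PORCN fell by 1.56 ± 0.29 in mural cells (edgeR adjusted p = 0.000455), from 9.58 ± 2.82 to 3.04 ± 0.874 CPM, and lay between 10.5 and 34.4 CPM across all 10 cumulus libraries. Its interaction was 1.52 ± 0.39 (edgeR adjusted p = 0.00492). TLE2, a co-repressor that binds TCF/LEF factors, likewise fell in mural cells by 1.56 ± 0.34 (edgeR adjusted p = 0.00203), with an interaction of 1.69 ± 0.47 (edgeR adjusted p = 0.0079). JUN, an immediate early gene listed as a target, fell in mural cells by 1.96 ± 0.41 (edgeR adjusted p = 0.00177).

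**Figure D5:**
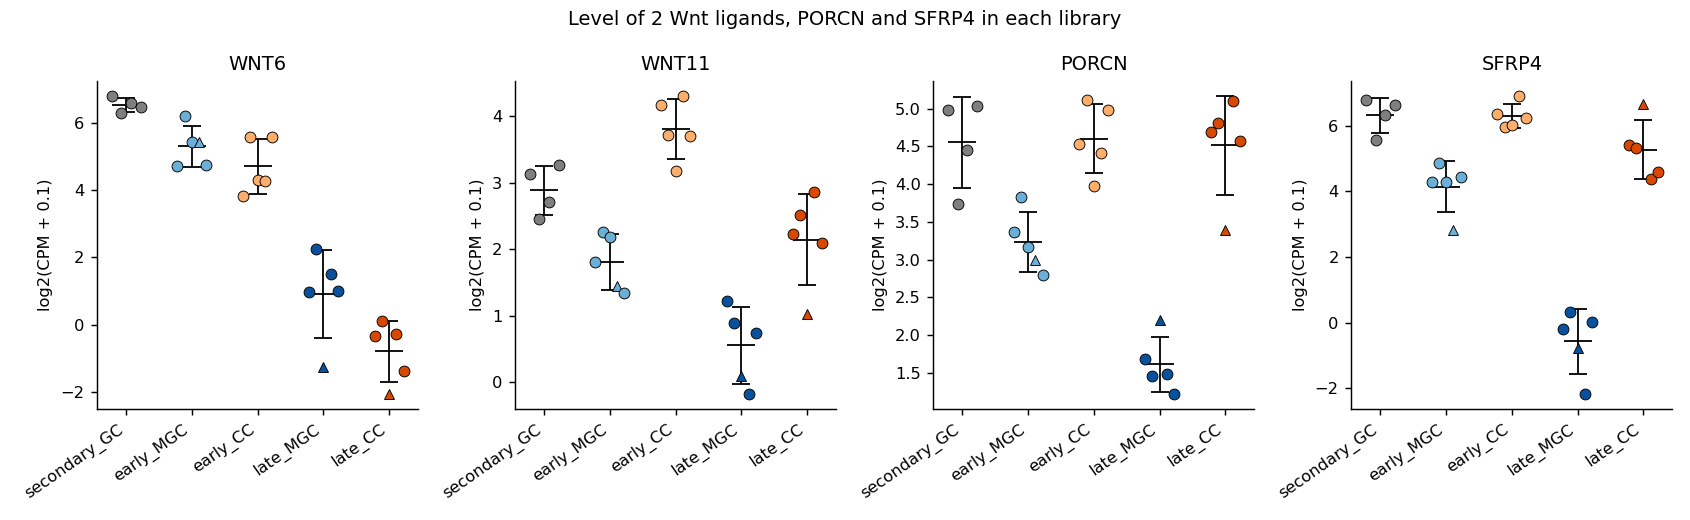
WNT6, WNT11, PORCN and SFRP4 in each library, as log2(CPM + 0.1), by group, with triangles for the 3 libraries that stood apart and bars for mean ± SD of the log2 values. WNT6 is lower in both late groups, whereas SFRP4 is near 0 in late_MGC only, at 0.683 CPM on average against 45.5 CPM in late_CC.

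Of 12 genes of the cytoplasmic core tested, 2 rose and 0 fell in mural cells, and 3 rose and 0 fell in cumulus cells. Of 9 nuclear factors, 1 rose and 1 fell in mural cells, and 2 rose and 0 fell in cumulus cells. The shares called, 16.7% and 25% of the core genes and 22.2% of the nuclear factors in either cell type, were near or below the 19.1% and 45.2% of all genes. CTNNB1, which encodes beta-catenin, rose in mural cells by 0.73 ± 0.17 (edgeR adjusted p = 0.00301) from 173 ± 30.6 to 268 ± 36.1 CPM, and in cumulus cells by 0.93 ± 0.17 (edgeR adjusted p = 8.04e-05) from 283 ± 37.4 to 541 ± 112 CPM. BCL9, a beta-catenin co-activator, rose by 0.97 ± 0.21 (edgeR adjusted p = 0.00223) and 1.72 ± 0.21 (edgeR adjusted p = 1.22e-06). GSK3B, the kinase that marks beta-catenin for destruction, rose in mural cells by 0.69 ± 0.20 (edgeR adjusted p = 0.0143), a call lost without the 3 libraries that stood apart (edgeR adjusted p = 0.0818). In cumulus cells GSK3B rose by 0.91 ± 0.20 (edgeR adjusted p = 0.000537), called in all 32 alternatives.

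TCF7L2, a relative of TCF7, moved opposite to TCF7 in cumulus cells. It rose by 1.42 ± 0.20 (edgeR adjusted p = 5.81e-06), from 23.2 ± 2.86 to 61.5 ± 11.2 CPM, with early_CC at 19.9 to 26.4 CPM and late_CC at 46.4 to 77.8 CPM. The mural value was -0.24, and the interaction was 1.66 ± 0.28 (edgeR adjusted p = 0.00011). MYC, a target gene in many tissues, rose in cumulus cells by 1.2 ± 0.24 (edgeR adjusted p = 0.000233), and by 0.81 at the lowest when 1 library was left out.

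Of 7 receptors tested, 2 rose and 0 fell in mural cells, and 3 rose and 1 fell in cumulus cells, 28.6% and 57.1% beside 19.1% and 45.2% of all genes. ROR2 and RYK, which bind Wnt ligands outside the Frizzled family, were called higher in both. ROR2 rose by 0.83 ± 0.23 in mural cells (edgeR adjusted p = 0.012), a call lost with the groups compared alone (edgeR adjusted p = 0.0855). RYK rose by 1.40 ± 0.21 in cumulus cells (edgeR adjusted p = 1.09e-05) and by 0.68 ± 0.21 in mural cells (edgeR adjusted p = 0.0228). The mural call was lost in 5 of 30 alternatives, among them without early_MGC 5 or late_MGC 1, 4 or 5. RYK was at 41.8 CPM in late_MGC 3, against 76.0 to 102 CPM in the rest of late_MGC and 49.3 to 59.1 CPM in early_MGC. The co-receptor LRP5 fell in cumulus cells by 0.94 ± 0.34 (edgeR adjusted p = 0.0273). That call was lost in 6 of 32 alternatives, with edgeR adjusted p up to 0.0939. Among these was leaving out any 1 of late_CC 1, 2, 4 or 5 or early_CC 5. LRP5 was at 32.7 CPM in late_CC 3, against 6.81 to 12.9 CPM in the rest of late_CC and 22.2 to 32.6 CPM in early_CC. Its log2 fold change ranged from -1.61 to -0.72 when 1 library was left out. The other co-receptor, LRP6, rose in cumulus cells by 0.98 ± 0.33 (edgeR adjusted p = 0.0184); it was named after its value was seen. LGR4, an R-spondin receptor related to LGR5, was called higher in late_MGC by 1.49 ± 0.46 (edgeR adjusted p = 0.025). That call rested on late_MGC 3, at 207 CPM against 25.3 to 37.5 CPM in the rest, and without it the value was 0.46 (edgeR adjusted p = 0.237). It was also lost without early_MGC 3 (edgeR adjusted p = 0.0619). SFRP1, a secreted inhibitor, rose in late_CC by 2.21 ± 0.65 (edgeR adjusted p = 0.00697), but without late_CC 3 it was at 1.46 (edgeR adjusted p = 0.0647).

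Between secondary follicles and early antral mural cells 2 of 46 genes of the wider list rose and 3 fell, 10.9% called beside 9.1% of all genes. SFRP4 fell by 1.99 ± 0.43 (edgeR adjusted p = 0.0071) and PORCN fell by 1.22 ± 0.29 (edgeR adjusted p = 0.011). WLS, the carrier of Wnt ligands to the cell surface, fell by 1.86 ± 0.48 (edgeR adjusted p = 0.017). APC, a scaffold of the destruction complex, rose by 0.70 ± 0.16 (edgeR adjusted p = 0.0102), and PYGO1, a co-activator that binds BCL9, rose by 1.86 ± 0.55 (edgeR adjusted p = 0.036). WLS, APC and PYGO1 were named after their values were seen. The count of 5 was 8 without the 3 libraries that stood apart and 2 without secondary_GC 4.

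In early_CC against secondary_GC edgeR called 0 of 46, beside 1.99% of all genes. That count depended on the analysis: it was 2 with DESeq2, 2 with limma-voom, 5 with the groups compared alone and 7 without the 3 libraries that stood apart. It was 3 without late_MGC 3, 1 without late_MGC 2 and 1 without late_CC 3.

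The genes whose log2 CPM followed NKD1 most closely over the 24 libraries, among 10787 others that passed the count filter, had a symbol and averaged at least 1 CPM, were NOD2 (Pearson r = 0.960), WT1 (0.959), GRHL3 (0.957), PLAC1 (0.940) and DMRTA1 (0.939). These correlations are descriptions over libraries that fall into the same 5 groups and share their depth. AXIN2 ranked 7th for NKD1 with r = 0.938, and DKK3 was near the other end with r = -0.888. TCF7 (r = 0.28) and LEF1 (r = -0.0023) did not follow it. The closest to AXIN2 were RAMP1 (0.947), MGC133636 (0.941), NKD1 (0.938), PHLDB1 (0.930) and WT1 (0.928). WT1, a transcription factor of the early gonad, appeared in both sets, at 70.4 ± 10.7 CPM in secondary_GC, 43.4 ± 8.84 in early_MGC, 3.82 ± 0.591 in late_MGC and 3.996 ± 2.16 in late_CC.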

How the data were processed

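The counts of reads per gene were deposited as 1 table of 24 libraries. Per the file headers, the authors counted exons by gene with featureCounts 2.0.0 against an Ensembl annotation of ARS-UCD1.2, with no strand option set, and the submitters' processing notes also list fastp 0.20.0, HISAT2 2.1.0 and SAMtools 1.10. Without strand, overlapping antisense reads cannot be told apart, but no exon of a member overlapped another gene's exon. One further column of undetermined reads, which belongs to no sample, was not used. Symbols were assigned where a gene's span and a RefSeq gene's (ARS-UCD2.0) were each other's best match with at least 0.5 of their joint span shared.

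Counts were tested with edgeR 4.0.16 (quasi-likelihood, robust, TMM scaling, filterByExpr) over all 24 libraries by group, with Benjamini-Hochberg adjustment in 6 comparisons and the interaction. Log2 CPM for correlations used a prior count of 2. Alternatives were RLE scaling, no count filter, DESeq2 1.42.0, limma-voom (limma 3.58.1), each library left out, the 3 libraries that stood apart left out, the groups compared alone, and a replicate block. The late against early tests alone were also run on simulated counts, and the outcome is not given here. Those counts had fewer changed genes than were called in the data and held no library that stood apart. Libraries of 1 group differed by more than sampling noise. Columns of late_MGC and secondary_GC carry no matching replicate number and were numbered in column order.

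The members and lists were chosen with earlier results of these data known. Named were all 9 members; listed Wnt genes called late against early or in the interaction with a mean of at least 1 CPM, up to 5 per direction; and the 5 genes most like NKD1 and AXIN2. Marker lists covered granulosa, oocyte, theca and stroma, endothelium, blood cells and epithelium. Summed over each group, endothelium markers averaged 4.62 CPM in late_MGC to 35.4 in early_MGC, blood cell markers 1.02 in late_CC to 4.83 in early_MGC, epithelium markers 0.0765 in late_CC to 9.01 in secondary_GC, and oocyte markers 15.7 in early_MGC to 70.2 in late_CC. Depth per library was 8379801 to 31762400 counts, and limits for a count of 0 take 3 counts over a group.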

Additional observations from a re-analysis of the deposited data

Results flagged for a closer look

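Several values lay far from the rest of their group, with a gap to the nearest library above Dixon's 95% critical value. This was so for 17 combinations of gene and group. In 5 of them, WNT4 in early_MGC and LGR5 in the other 4 groups, a single library held all the counts, which fixed the outcome. The other 12 came from 116 combinations with counts in more than 1 library, and chance flags about 1 in 20 groups. Of all 17, library late_CC 3 held 7 and late_MGC 3 held 4, each including LGR5, whose outcome was fixed. In late_CC 3 these were LEF1 at 10.7 CPM, LGR5 at 0.623, LGR4 at 86.7, SFRP4 at 101, SFRP1 at 13.01, MYC at 448 and LRP5 at 32.7 CPM. In late_MGC 3 they were DKK3 at 57.9 CPM, LEF1 at 7.98, LGR5 at 0.107 and LGR4 at 207 CPM.

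The other 6 were spread over 6 libraries. AXIN2 was at 4.37 CPM in late_CC 2, WNT4 at 0.123 CPM in early_MGC 1, LGR5 at 0.142 CPM in secondary_GC 3 and at 0.128 CPM in early_CC 3, TLE2 at 71.1 CPM in early_MGC 2 and TCF7L2 at 54.8 CPM in secondary_GC 2. The WNT4 and LGR5 values rest on 3 counts or fewer, apart from the 9 counts of LGR5 in late_CC 3.

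Late against early changes differed between cumulus and mural cells by the test of the interaction for TCF7 (-0.96, as a log2 difference, cumulus minus mural) and for 9 genes of the wider list. These were SFRP4 (3.86), SFRP1 (3.09), TLE2 (1.69), TCF7L2 (1.66), PORCN (1.52), JUN (1.48), APC (1.07) and MYC (0.95), and, in the negative direction, TNFRSF19, which averaged 0.445 CPM. The SFRP1 value was 2.33 without late_CC 3 (edgeR adjusted p = 0.0526). The JUN call was lost in 19 of 30 alternatives, with edgeR adjusted p up to 0.0985, among them without any 1 library of early_CC or secondary_GC, late_CC 3, 4 or 5, early_MGC 2 or 5, or late_MGC 1, 2 or 5. The MYC call was lost in 9 of 30, with edgeR adjusted p up to 0.244, among them without early_CC 1, 2 or 5, late_CC 3, early_MGC 4 or late_MGC 4.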

How the results depend on the processing

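The fall of AXIN2 in both cell types, the TCF7 changes in cumulus cells and in the interaction, and the late RNF43 difference kept direction and call in every alternative run for them. Among members, 1 value without a test turned: the NKD1 interaction of -0.65 ranged from -1.03 to 0.073 when 1 library was left out, the positive value without late_MGC replicate 2. The count of members called in early_MGC against secondary_GC, 1 in the fit as reported, was 0 with no filter on low counts and 0 with the groups compared alone, since TCF7 lost its call (edgeR adjusted p = 0.0549 and 0.0697). Leaving out 1 library gave 0 to 1, with the call lost without secondary_GC 1, 3 or 4 or early_MGC 1 or 2. In late_CC against late_MGC the count of 1 became 2 without the 3 libraries that stood apart, TCF7 joining RNF43, and leaving out 1 library gave 1 to 2, with 2 without late_CC 2 or late_MGC 3.

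Over all genes, early_CC against secondary_GC moved from 285 calls to 728 with DESeq2, 603 with limma-voom, 1304 without the 3 libraries and 964 with the groups alone. Leaving out 1 library gave 150 to 741, the highest without late_MGC 3 and counts below 190 (151, 182, 173, 157, 150 and 160) without early_CC 1, 2, 3 or 4 or secondary_GC 2 or 4. With the groups alone, late_MGC against early_MGC gave 1612 calls in place of 2725 and early_CC against early_MGC 3035 in place of 1871. Leaving out 1 library gave 516 to 1895 calls for early_MGC against secondary_GC in place of 1301 (808, 850, 516 and 861 without secondary_GC 1, 2 or 4 or early_MGC 4), 2093 to 3396 for late_MGC against early_MGC, and 1222 to 2555 for early_CC against early_MGC, the lowest without early_MGC 5. The cause was not tested.

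Samples of early_CC, early_MGC and late_CC share replicate numbers. Only 4 of 15 same-numbered pairs correlated above 0.1 (-0.147 to 0.242), and the same 4 correlated best with their own number. These were the pairs among early_CC 1, early_MGC 1 and late_CC 1 (0.203 to 0.242) and early_CC 2 with early_MGC 2 (0.182). A shared source of these libraries was not tested, and the number was not treated as a pairing in the main fit. With the replicate block, late_CC against early_CC gave 6988 calls and early_CC against early_MGC 2620, beside 6922 and 2591 in the same 3 groups with no block, a fit added after seeing the data. The members called were AXIN2 and TCF7 in the former and none in the latter under both. No paired fit included late_MGC or secondary_GC, whose columns carry no matching number. DESeq2 gave no adjusted p for LGR4. Few counts lie behind WNT4, LGR5, RNF43 and late NKD1.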

Other observations

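The gene whose level followed NKD1 most closely, NOD2, an intracellular sensor of bacterial cell wall fragments, is also a neighbour of NKD1 on chromosome 18. In build ARS-UCD1.2 it lies 55167 bases beyond the end of NKD1 on the same strand, with SNX20 between them on the other strand. NOD2 averaged 4.14 ± 2.58 CPM in secondary_GC (SD, n = 4), 3.87 ± 1.33 in early_MGC, 2.63 ± 0.718 in early_CC, 0.0618 ± 0.0946 in late_MGC and 0.0483 ± 0.108 in late_CC (SD, n = 5 each). Its late against early log2 fold change was -5.80 ± 0.82 in mural cells and -5.61 ± 0.85 in cumulus cells (± SE), given without a test since NOD2 was picked for its likeness to NKD1.

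The next genes outward did not pass the test. CYLD, a deubiquitinase 96576 bases from NKD1, was at -0.07 ± 0.25 in mural cells (edgeR adjusted p = 0.869) and 0.32 ± 0.25 in cumulus cells (edgeR adjusted p = 0.298). BRD7, on the other side at 173449 bases, was at -0.06 ± 0.14 (edgeR adjusted p = 0.799) and -0.17 ± 0.14 (edgeR adjusted p = 0.334), with group means of 70.7 to 80.6 CPM. Beyond BRD7, ADCY7 at 219817 bases was at -1.87 ± 1.06 (edgeR adjusted p = 0.229) and -1.82 ± 1.15 (edgeR adjusted p = 0.201), with 129 counts in all 24 libraries. SNX20 had 26 counts in all 24 libraries, none of them in a late group, and did not pass the count filter. These neighbours were looked at after the likeness of NOD2 to NKD1 was seen.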
